A study of Mus musculus with 2 samples.

Results

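CpG methylation was examined at the keratin genes Krt8, Krt18, Krt19 and Krt20 in mouse liver after a fast. The cytosines described had 5 or more reads in each library and lay inside the RefSeq span of a gene or within 10 kb of it, 270 of the 2521919 cytosines that met this read minimum in the whole data set. Of the 270, 71 lay at Krt8, 109 at Krt18, 70 at Krt19 and 20 at Krt20. Krt8 was chosen by the lower methylation of its start cytosines in the fasted library, so every fasted-against-control value at Krt8 is a description and carries no test. Krt18, Krt19 and Krt20 were taken with it as the partner keratin of hepatocytes, a keratin of bile ducts and a keratin not known to be expressed in hepatocytes.

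The 2 libraries came from liver of CD-1 mice, an outbred stock, aged 12 weeks. The fasted library was from mice left without food for 12 hr, and the control library was from mice kept on standard chow. Whether a library held 1 animal or a pool was not given, nor was the sex. Reduced representation bisulfite sequencing, which reads fragments cut by the enzymes MspI and TaqI, gave methylated and total reads for each cytosine. The fasted library held 51276705 reads over cytosines and the control library 49253627, with 1 library a group and no replicate check. Intervals cover counting error only. At the edge of the read minimum, 29 of the 270 cytosines had 5 reads in the shallower library and averaged 26.4% in the fasted and 29.5% in the control library, and 25 left out with 4 reads averaged 82.6% in the fasted and 83.2% in the control library.

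Keratins are the intermediate filament proteins of epithelial cells, and each filament pairs a type I with a type II keratin. Krt8 (type II) and Krt18 (type I) form the main pair of adult hepatocytes, where the filaments give the cell mechanical strength and protect it against stress. Bile duct cells add Krt7 and Krt19, while Krt20 is known from the lining of the gut and the urinary tract. Methylation of CpGs at a gene's start commonly accompanies silence, and CpG-rich starts of active genes are mostly unmethylated. In whole liver, a different mix of cell types and a different methylation level within 1 cell type cannot be told apart.

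The annotated starts of 3 of the 4 genes are shown because Krt8 was chosen by cytosines at its start. The letters also set which CpGs the assay could read. Sequences are from RefSeq (GRCm38.p6, the build also known as mm10), from 250 bases before to 50 bases after the start, in the direction of transcription, with CpGs measured in both libraries in capitals. Krt8 is on the minus strand at chr15:102004293-102004592, Krt18 on the plus strand at chr15:102027966-102028265, and Krt20 on the minus strand at chr11:99438104-99438403.
Krt8: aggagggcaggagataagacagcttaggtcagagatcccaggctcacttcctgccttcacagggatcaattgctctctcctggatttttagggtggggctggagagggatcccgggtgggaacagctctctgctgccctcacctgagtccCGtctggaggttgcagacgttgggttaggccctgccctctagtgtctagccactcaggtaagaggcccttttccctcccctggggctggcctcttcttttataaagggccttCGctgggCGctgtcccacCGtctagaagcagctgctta
Krt18: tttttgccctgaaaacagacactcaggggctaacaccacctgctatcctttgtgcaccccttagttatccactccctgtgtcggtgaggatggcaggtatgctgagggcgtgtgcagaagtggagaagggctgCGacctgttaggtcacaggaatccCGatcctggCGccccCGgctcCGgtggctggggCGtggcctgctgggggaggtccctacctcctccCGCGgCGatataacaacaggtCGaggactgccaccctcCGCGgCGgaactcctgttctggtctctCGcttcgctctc
Krt20: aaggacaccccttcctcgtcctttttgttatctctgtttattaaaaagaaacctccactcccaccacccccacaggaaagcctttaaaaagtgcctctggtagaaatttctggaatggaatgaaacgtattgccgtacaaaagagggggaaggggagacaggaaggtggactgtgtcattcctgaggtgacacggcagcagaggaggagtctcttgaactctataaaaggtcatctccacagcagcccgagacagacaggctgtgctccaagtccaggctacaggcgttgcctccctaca

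The Krt18 start held 17 CpGs, of which 14 were measured. The Krt8 and Krt20 starts held 6 CpGs each, of which 4 were measured at Krt8 and 0 at Krt20. A start of 300 bases held at least 17 CpGs in 32.0% of 31396 autosomal starts, and at least 6 in 56.8%. The MspI site CCGG occurred 2 times at Krt18, 1 time at Krt8 and 0 times at Krt20, and 53.5% of all starts held it. The TaqI site TCGA occurred 1 time at Krt18 and 0 times at Krt8 and Krt20, and 61.0% of all starts held either site. TATAAA, searched on both strands, was found at Krt8, beginning 1 base before the annotated start, and at Krt20, beginning 29 bases before it, but not at Krt18. It was present in 13.6% of all starts and in 52.8% of 36 keratin starts. These matches describe the letters only.

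At Krt8 (chromosome 15, 101996711 to 102004342), the 12 measured cytosines from 1000 bp outside to 500 bp inside the start averaged 9.95% methylation in the fasted library and 22.8% in the control library, a difference of -12.9 percentage points. With read counts summed over these cytosines, 13 of 163 in the fasted library were methylated (7.98%, exact 95% interval 4.31 to 13.3). In the control library 33 of 127 were (26%, 18.6 to 34.5). A read that covers several cytosines is counted at each, so these intervals are likely too narrow and are not a test. Among 12643 protein-coding genes with at least 5 cytosines in this window, 1.34% were lower in the fasted library by at least 10 points. Among the 508 windows with 5 to 20 cytosines and a mean level of 10 to 40%, as at Krt8, that share was 11.8%, and 8.27% were higher by as much.

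The difference at the Krt8 start was carried by the plus strand. Its 9 plus-strand cytosines averaged 4.93% in the fasted library and 26% in the control library, and 8 of them were lower in the fasted library while the other was at 0 in both. Of these, 6 had at least 10 reads in both libraries, all within 160 bp (102004282 to 102004441), and averaged 5.32% in the fasted library and 30.7% in the control library. These 6 are the values for which Krt8 was chosen.

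The plus-strand cytosine at 102004282, 60 bp into the gene, had 0 of 19 reads methylated in the fasted library, which allows a level of up to 15.8%, and 5 of 15 in the control library (33.3%, exact 95% interval 11.8 to 61.6). At 102004322, 20 bp into the gene, 0 of 20 reads were methylated in the fasted library, which allows up to 15%, and 5 of 15 in the control library. At 102004311, 31 bp in, the counts were 0 of 19 in the fasted library and 4 of 15 in the control library. These 3 positions had no methylated read after the fast.

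At 102004288, 54 bp in, 3 of 19 reads were methylated in the fasted library and 5 of 15 in the control library. At 102004329, 13 bp in, the counts were 2 of 18 in the fasted library and 4 of 13 in the control library. The cytosine at 102004441, 99 bp before the start, had 1 of 20 methylated reads in the fasted library and 4 of 15 in the control library. All 6 positions thus stood on 18 to 20 reads in the fasted library and 13 to 15 in the control library. Neighbouring cytosines on 1 fragment share reads, so these are not independent measurements.

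The 3 remaining plus-strand cytosines had 8 reads in each library. The one at 102004254 had 1 methylated read in the fasted library and 3 in the control library, that at 102004274 had 0 and 1, in the same order, and that at 102004194 had 0 in both. There were 3 CpGs at the start also measured on the minus strand, with 8 reads each in the fasted library and 5 in the control library. There the fasted library was higher at each, with 2, 3 and 1 methylated reads at 102004255, 102004275 and 102004283, against 1, 1 and 0 in the control library. At these 3 CpGs the strands differed in direction, with -25, -12.5 and -33.3 points on the plus strand and 5, 17.5 and 12.5 points on the minus strand. The minus-strand values rest on these few reads.

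**Figure D1:**
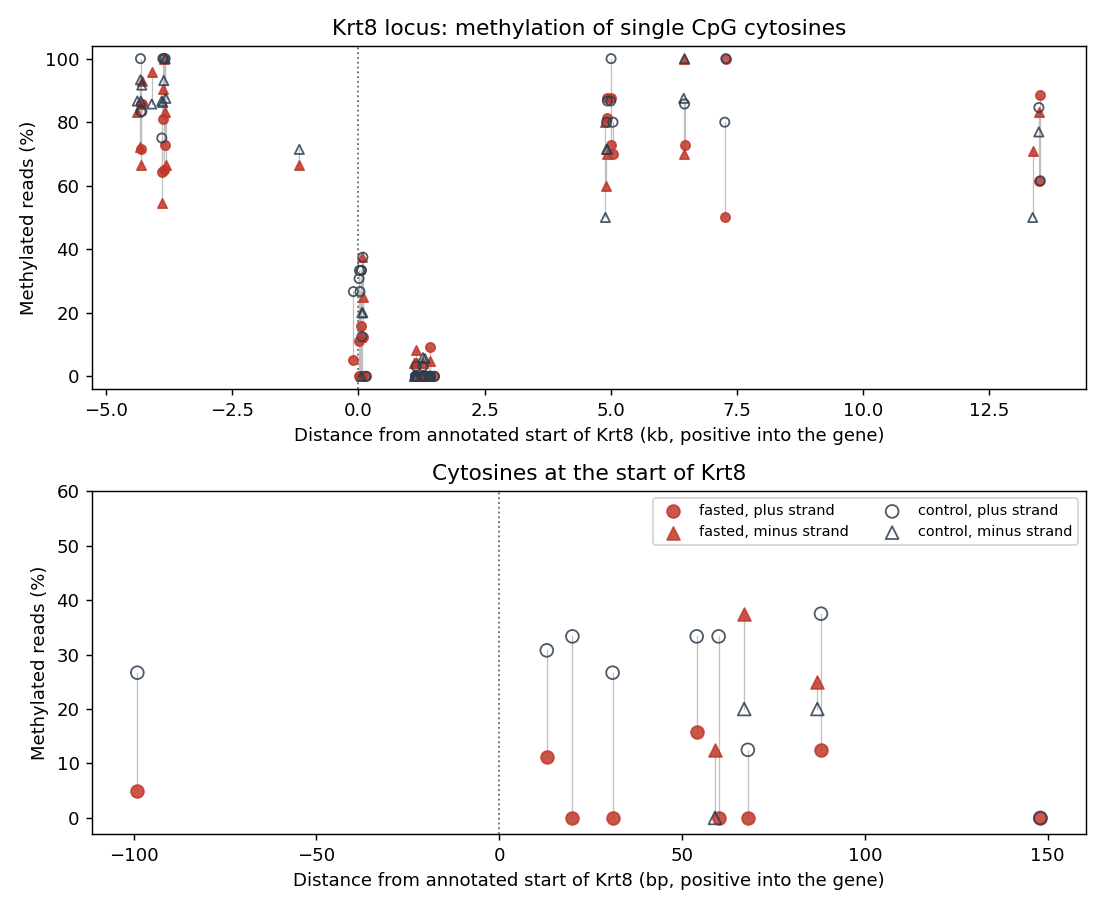
Methylated reads (%) of each Krt8 cytosine against distance from the annotated start, for the whole locus in kb (top) and for the start in bp (bottom). Filled symbols are the fasted library, open symbols the control library, circles the plus strand and triangles the minus strand, and a grey line joins the same cytosine. At the start, 8 of 9 plus-strand cytosines are lower in the fasted library and 3 of 3 minus-strand cytosines are higher.

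Further into Krt8, 24 cytosines between 1107 and 1505 bp from the start were nearly unmethylated in both libraries, at 1.79% in the fasted and 0.737% in the control library. No cytosine was measured between this stretch and the start window. Beyond 2000 bp into the gene, 13 cytosines averaged 77.1% in the fasted library and 83.0% in the control library, with 7 lower and 4 higher in the fasted library. They include both the cytosine at 101997083, with 4 of 8 methylated reads in the fasted and 4 of 5 in the control library, and that at 101999448, with 8 of 10 in the fasted and 3 of 6 in the control library.

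The flank beyond the Krt8 start was the other place of lower values. Its 18 cytosines averaged 77.7% in the fasted library and 89.5% in the control library, with 13 lower and 5 higher. Of these, 17 lie inside Gm36026, a long noncoding RNA gene that lies 1801 bp from Krt8. The largest single difference of the locus was there, at 102008198, where 13 of 20 reads were methylated in the fasted library and 12 of 12 in the control library. On the other strand of that CpG, at 102008199, the fasted library was the higher, with 21 of 21 reads in the fasted library and 27 of 29 in the control library. At 102008239, 6 of 11 reads were methylated in the fasted library and 13 of 15 in the control library. In this flank the 7 plus-strand cytosines differed by -16.5 points and the 11 minus-strand cytosines by -8.76 points.

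The locus mean hides this division. Over all 71 cytosines Krt8 averaged 40.4% in the fasted library and 45.8% in the control library, a difference of -5.47 points, with 33 cytosines lower, 23 higher and 15 equal. Of the net difference, 39.9% came from the start window, 54.7% from the flank beyond the start and 20% from the gene beyond 2000 bp, while the nearly unmethylated stretch (-6.53%) and the far flank inside the keratin gene Krt78 (-8.05%) went the other way. The locus difference was 2.43 points over the 14 cytosines with 20 or more reads in each library, and -1.33 points with every read weighted equally. Cytosines lower by at least 25 points numbered 9 (12.7%), against 3.59% of 2466496 autosomal cytosines, and 2 were higher by as much, against 3.82%. The 9 include 102004282, 102004311 and 102004322, which are among the values for which Krt8 was chosen. Neighbours also share reads, so this share is a description only. At the far end the cytosine at 101990830 had 23 of 26 methylated reads in the fasted library and 8 of 13 in the control library, and that at 101990982 had 22 of 31 in the fasted and 7 of 14 in the control library.

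Krt18 (chromosome 15, 102028216 to 102032026) showed almost no difference at its start. The 57 cytosines of its start window averaged 5.62% in the fasted library and 5.65% in the control library, with 10 higher, 10 lower and 37 equal. The 26 cytosines inside the printed sequence averaged 0% in the fasted library and 0.847% in the control library. Just outside it, 102027922 had 6 of 13 methylated reads in the fasted library and 3 of 12 in the control library. Its neighbours 102027927, with 7 of 17 in the fasted and 3 of 14 in the control library, and 102027934, with 5 of 13 and 3 of 12 in that order, were also among the highest differences at Krt18.

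Farther upstream, 14 cytosines between -1557 and -1264 bp of the Krt18 start averaged 13.0% in the fasted library and 24.3% in the control library, and 13 of the 14 were lower in the fasted library. Here both strands had the same direction, with 9 of 9 minus-strand and 4 of 5 plus-strand cytosines lower. The cytosine at 102026952 had 1 of 11 methylated reads in the fasted library and 4 of 10 in the control library, and that at 102026939 had 2 of 11 in the fasted and 4 of 10 in the control library. That at 102026694 had 0 of 32 in the fasted library, which allows up to 9.38%, and 3 of 24 in the control library. Each of the 14 had an adjusted p of 1, and the stretch was picked after its values were seen.

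Still farther out, at -5407 bp, the minus-strand cytosine at 102022809 had 1 of 10 methylated reads in the fasted library and 4 of 6 in the control library. This was the largest difference at Krt18, -56.7 points (adjusted p = 1, Fisher's exact test, adjusted by Benjamini and Hochberg's method). Between these places, 10 cytosines between -2661 and -2466 bp were nearly unmethylated, at 2.37% in the fasted library and 1.91% in the control library. Within the gene, 15 cytosines from 1209 to 1859 bp past the start averaged 41.2% in the fasted library and 44.9% in the control library. At 102030075 the counts were 11 of 15 in the fasted and 9 of 9 in the control library, at 102029493 3 of 13 and 5 of 11 in that order, and at 102029440 4 of 14 and 2 of 16. The Krt18 locus as a whole stood at 17.5% in the fasted library and 19.9% in the control library, a difference of -2.35 points with 39 cytosines lower, 23 higher and 47 equal.

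Krt19 (chromosome 11, 100140810 to 100145926) has no strand in the tables used, and its window was set at the gene end with more cytosines, that of the higher coordinate. This end was little methylated from 237 to 655 bp inside the gene, where 34 cytosines averaged 3.95% in the fasted library and 3.11% in the control library. Outside this end, 4 cytosines between -716 and -622 bp averaged 66.1% in the fasted library and 51.4% in the control library, with 2 higher and 2 equal. Among them, 100146602 had 13 of 14 methylated reads in the fasted library and 5 of 10 in the control library, the largest difference at Krt19 at 42.9 points (adjusted p = 1 by the same Fisher's exact test). Over the window of 23 cytosines the levels were 15.9% in the fasted library and 12.7% in the control library.

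Near the lower-coordinate end of Krt19, 7 plus-strand cytosines averaged 78.6% in the fasted library and 96.4% in the control library, with 6 lower. Their reads numbered 8 or 12 in the fasted library and 5 or 8 in the control library, and 100141381 had 5 of 8 and 5 of 5 methylated reads in that order. Those at 100141329 and 100141337 had 6 of 8 each in the fasted and 8 of 8 in the control library, and that at 100141378 had 6 of 8 in the fasted and 5 of 5 in the control library. Inside the gene, 100144721 had 3 of 5 in the fasted and 2 of 8 in the control library. Just outside the lower-coordinate end, 8 cytosines on both strands averaged 76.0% in the fasted library and 71.7% in the control library. Of them 5 were higher and 3 lower, with 10 to 12 reads in the fasted library and 19 in the control library. Farther out, 13 cytosines inside the neighbouring keratin gene Krt15 stood at 88.0% in the fasted library and 85.7% in the control library. There, 100133046 had 13 of 18 in the fasted and 26 of 27 in the control library, and 100134774 had 10 of 10 and 5 of 7 in that order. The Krt19 locus averaged 41.1% in the fasted library and 40.1% in the control library, with 26 cytosines higher, 20 lower and 24 equal. Its difference of 0.980 points was -1.85 over the gene span alone and -3.13 with every read weighted equally.

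Krt20 (chromosome 11, 99428385 to 99438153) was mostly methylated at the cytosines measured in its span, which lay 1382 to 5851 bp past the start. Its 12 cytosines within the gene averaged 76.3% in the fasted library and 79.3% in the control library, with 7 higher and 5 lower. Within the gene, the lowest level in the fasted library was at the minus-strand cytosine 99436771, 1382 bp past the start. It had 1 of 15 methylated reads in the fasted library and 4 of 7 in the control library (adjusted p = 1 by Fisher's exact test). In the same stretch 99436542 had 19 of 24 in the fasted and 13 of 20 in the control library, and 99436718 had 7 of 14 in the fasted and 4 of 11 in the control library. Before the start, 3 plus-strand cytosines between -3347 and -3301 bp had 0 of 7 methylated reads each in the fasted library, which allows up to 42.9%, and 2, 1 and 3 of 9 in the control library. The 20 cytosines of the locus averaged 68.1% in the fasted library and 74.3% in the control library, a difference of -6.19 points. Over the 12 cytosines with 10 or more reads in each library the difference was 1.05 points.

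**Figure D2:**
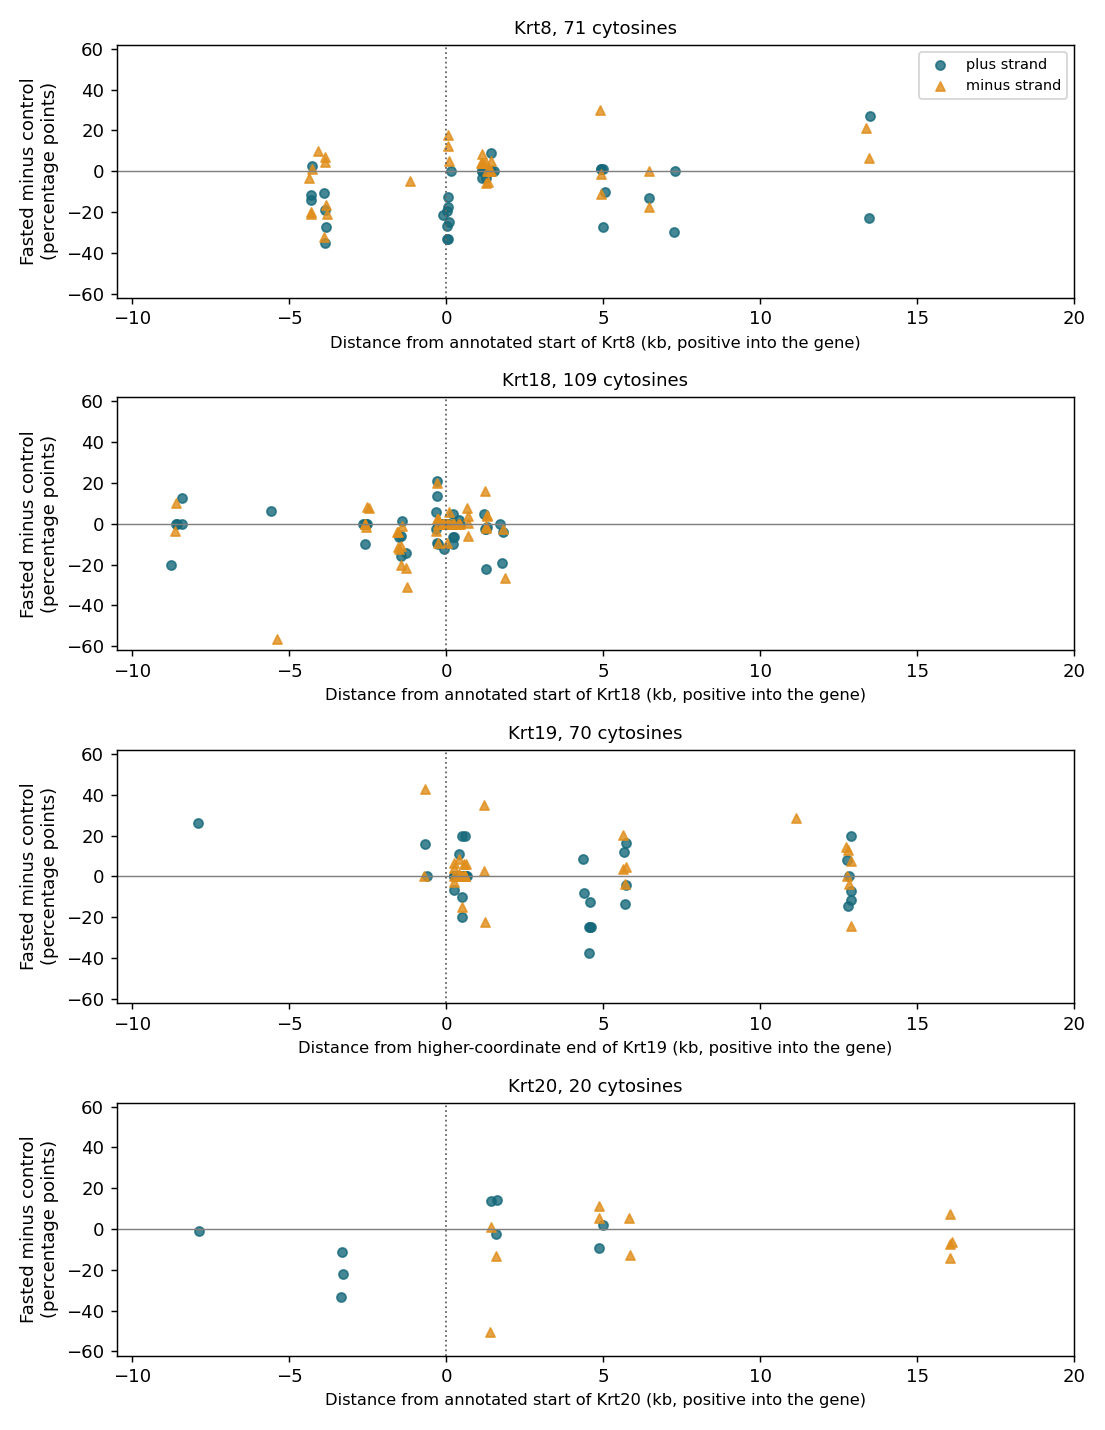
Difference in methylation, fasted minus control in percentage points, of each cytosine against distance in kb from the annotated start, or from the higher-coordinate end for Krt19. Circles are plus-strand and triangles minus-strand cytosines of the 71, 109, 70 and 20 at Krt8, Krt18, Krt19 and Krt20. The Krt8 start shows a column of plus-strand points below 0, the Krt18 start lies around 0, and the lowest point, -56.7, is upstream of Krt18.

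Of the 199 cytosines of Krt18, Krt19 and Krt20, 0 were called at an adjusted p under 0.05 (Fisher's exact test, adjusted over 2466496 autosomal cytosines) and a difference of at least 25 points. Over the autosomes 0.0548% were called, 0.0302% with the greater level in the fasted library and 0.0246% with the smaller. Of the 199, 3 had an unadjusted p under 0.05 (1.51%), where the share was 1.85% over all autosomal cytosines. The test compares 2 libraries and not the conditions. At locus level, 2.29% of 17867 protein-coding loci with at least 10 cytosines were lower in the fasted library by at least 5 points, as Krt8 and Krt20 were, and 2.67% were higher by as much. Among the 2088 loci with 10 to 30 cytosines, as at Krt20, 10.9% were lower and 13.7% higher by at least 5 points.

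**Figure D3:**
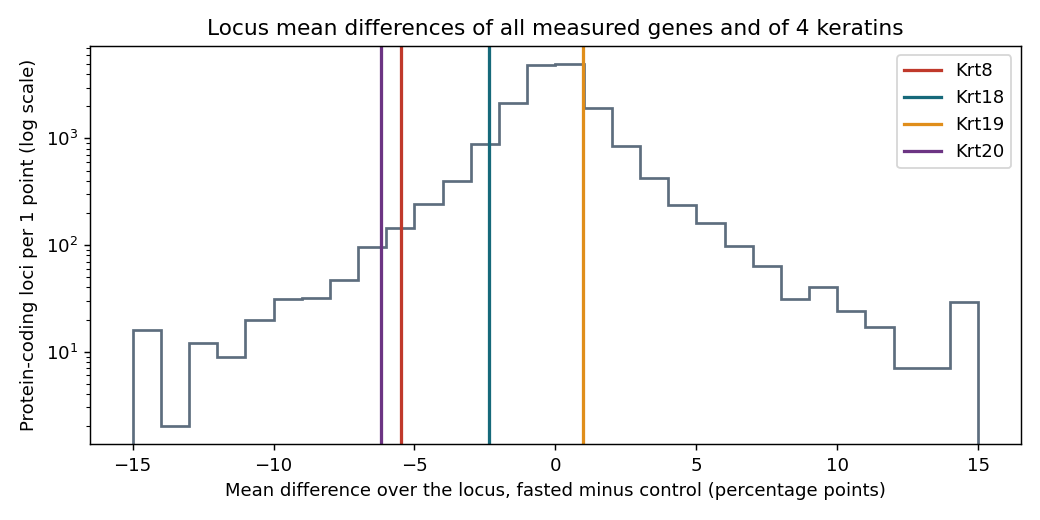
Number of protein-coding loci, on a log axis, by mean difference over the locus in bins of 1 percentage point, with vertical lines at the 4 keratins. The outermost bins also hold the 10 loci below -15 and the 21 loci above 15 points. Krt20 at -6.19 and Krt8 at -5.47 points lie to the left of the bulk, and Krt18 at -2.35 and Krt19 at 0.98 lie nearer to it.

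Over the measured cytosines of the gene span, Krt8, Krt18 and Krt19 were less methylated than Krt20 in both libraries. Over the gene span Krt18 stood at 16.3% in the fasted library (95% counting interval 14.0 to 18.7) and 17.9% in the control library (15.1 to 20.8). Krt19 stood at 18.7% in the fasted library (15.4 to 22.1) and 20.6% in the control library (18.0 to 23.2). Krt8 stood at 24.1% in the fasted library (21.6 to 26.7) and 28.0% in the control library (24.9 to 31.1). Krt20 stood at 76.3% in the fasted library (70.5 to 82.2) and 79.3% in the control library (73.1 to 85.5).

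The intervals of Krt18 and Krt19 overlapped in both libraries. Those of Krt19 and Krt8 overlapped in the fasted but not in the control library, and Krt20 stood apart from Krt8, Krt18 and Krt19 in both. These intervals treat cytosines as independent although neighbours share reads, so they are likely too narrow. Their overlap is not a test between genes. Below 10% methylation were 29 of 48 Krt8 cytosines in the fasted and 26 in the control library, 25 of 43 at Krt18 in both, 29 of 44 at Krt19 in both, and 1 of 12 at Krt20 in the fasted and 0 in the control library. A span mean depends on which fragments were read, so these levels describe the measured cytosines and not whole genes. The places were unlike: the 12 at Krt20 lay 1382 to 5851 bp past the start, with 0 in its start window. Beyond 2000 bp, 13 Krt8 cytosines averaged 77.1% in the fasted and 83.0% in the control library. The 7 near the lower-coordinate end of Krt19 averaged 78.6% and 96.4% in that order, and 15 at Krt18, 1209 to 1859 bp past the start, 41.2% and 44.9%.

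Among 44 keratin genes with at least 5 cytosines in the span, Krt18 and Krt19 were the least methylated in both libraries, and Krt8 ranked 3 from the lowest in the fasted and 4 in the control library. The other 40 keratins had a median span level of 77.9% in the fasted library and 76.3% in the control library, with 23 higher and 17 lower in the fasted library. Krt20, ranked 21 in the fasted and 28 in the control library, stood within the range of those genes. Low span levels were also found outside the liver keratins: Krt86, a hair keratin, stood at 25.7% in the fasted library and 24.4% in the control library, below Krt8 in the control library, and Krt88 stood at 36.6% and 34.5% in that order. Both were named after their values were seen. Krt7, the type II keratin of bile ducts, stood at 39.9% in the fasted library and 44.8% in the control library. Krt23, grouped here with the duct keratins, stood at 77.5% and 73.6% in that order, above Krt20 in the fasted library and below it in the control library. Krt5, the type II keratin of basal epidermal cells, stood at 82.0% in the fasted library and 72.6% in the control library. The span of Krt10, a keratin of differentiating epidermis, was at 34.0% in the fasted and 36.0% in the control library, and that of its partner Krt1 at 33.7% and 38.0% in that order. Their start windows, of 8 cytosines each, were more methylated. Krt10 stood there at 90.1% in the fasted and 88.9% in the control library, and Krt1 at 52.8% and 49.9% in that order. The Krt1 window was at the gene end with more cytosines. Krt14, the partner of Krt5, had only 4 cytosines in its span and was not measured.

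**Figure D4:**
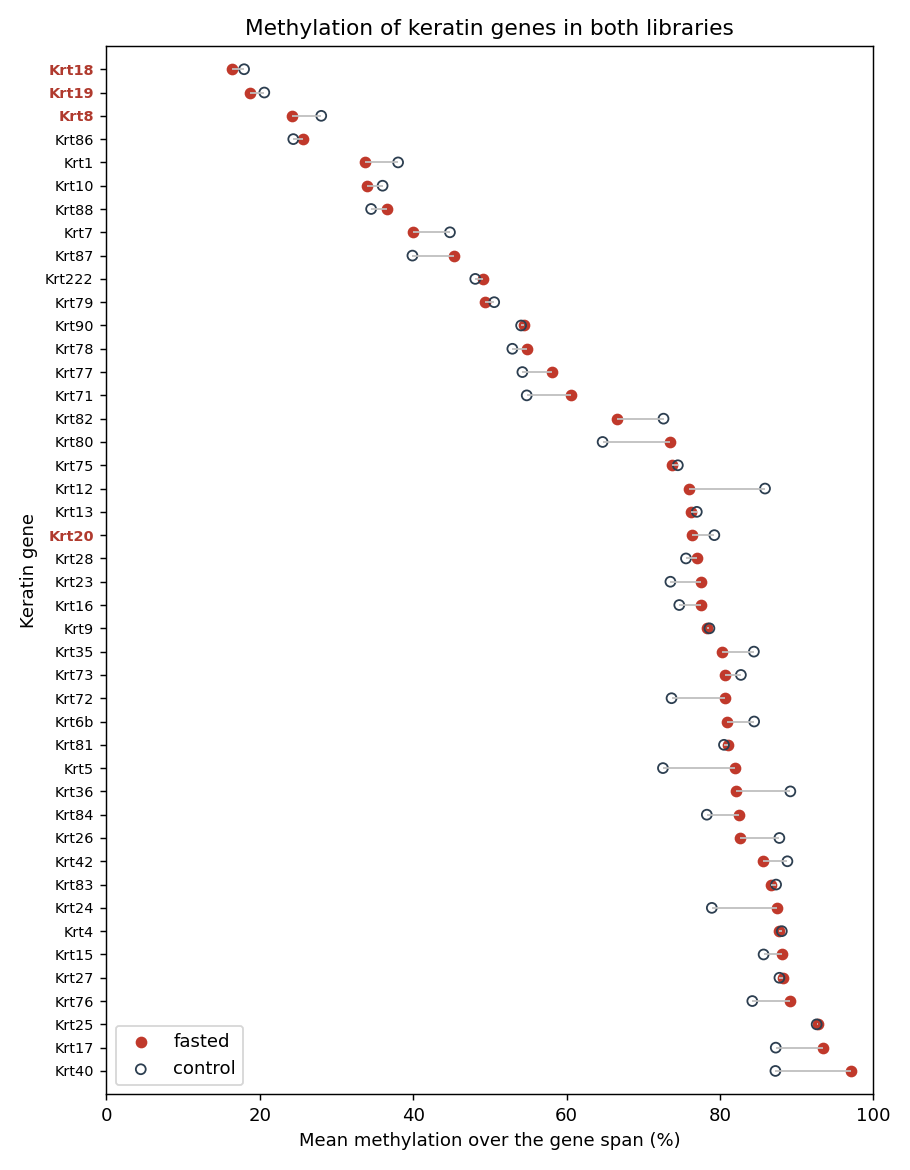
Mean methylation (%) over the gene span of 44 keratin genes in the fasted library (filled) and the control library (open), ordered by the fasted level, with a grey line joining the 2 values. Krt18, Krt19 and Krt8, in bold, lie between 16.3% and 28.0%, as does Krt86, and Krt20, in bold, lies among the methylated keratins.

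No other measured keratin start window was lower in the fasted library by at least 10 points. For keratins without a given strand, such as Krt80 and Krt87, the window was at the gene end with more cytosines. Of 19 measured type II keratins other than Krt8, 2 were higher in the fasted library by at least 10 points and 0 were lower by as much. The shares over all protein-coding windows were 1.2% higher and 1.34% lower. Their median level was 1.26% in the fasted library, beside 79.7% for the type II keratins, so these shares are not matched in level. Among the 508 windows with 5 to 20 cytosines and a mean level of 10 to 40%, 8.27% were higher and 11.8% lower by as much. The type II median lies above that range, as do Krt71, Krt5 and Krt28 in the fasted library. These shares are therefore not matched to them in level either. The 2 higher type II keratins were Krt71, a hair follicle keratin, at 51% in the fasted library and 37.4% in the control library, and Krt5 at 89.5% and 76.6% in that order. Of 14 measured type I keratins other than Krt18, Krt19 and Krt20, 2 were higher and 0 lower, namely Krt28 at 85.4% in the fasted library and 74% in the control library and Krt23 at 20.2% and 9.44% in that order. The lowest difference was -6.94 points among the type II keratins, at Krt73, and -4.30 points among the type I keratins, at Krt39, both hair follicle keratins. Median differences were -0.75 points for type II and 1.17 points for type I keratins, beside 0.0107 points over all protein-coding windows. The windows of Krt71 and Krt28 held 10 cytosines each, that of Krt23 12 and that of Krt5 7, whereas Krt7, with 46, stood at 32.0% in the fasted library and 37.8% in the control library.

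Partners of keratin filaments had 0 of 24 measured start windows past 10 points in either direction, with a median difference of 0.0640 points. The ends of this list were Evpl, which encodes the plakin envoplakin, at 4.54 points and Macf1, which encodes a linker of actin and microtubules, at -4.17 points. The Evpl window was at the gene end with more cytosines. Over gene spans, where 1% of protein-coding genes were lower by at least 10 points, 1 of 27 partners was, Sqstm1. Its product p62 binds ubiquitin and gathers with Krt8 and Krt18 in the keratin aggregates of injured liver. The Sqstm1 span stood at 34.4% in the fasted library and 47.4% in the control library over 28 cytosines, and its start window at 9.43% and 7.79% in that order. Sqstm1 was named for its span after the values were seen.

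Genes that mark liver cell types were set beside the Krt8 values. Over all protein-coding start windows, 1.2% were higher and 1.34% lower in the fasted library by at least 10 points. Among the 508 with 5 to 20 cytosines and a mean level of 10 to 40%, 8.27% were higher and 11.8% lower. Of 12 hepatocyte genes 5 had a measured start window, of which 0 were higher and 1 lower by as much. Their levels ranged from 10.3% to 89.8% in the fasted library and from 11.4% to 91.1% in the control library, with Apob, the main protein of very low density lipoprotein, lowest at -13.6 points and Pck1 highest at 8.53 points. Start windows of the secreted hepatocyte genes Alb, Apoa1 and Ttr held 0 cytosines. The summed level of the 5 was 167.5% in the fasted and 179% in the control library, a fall no larger than that at Apob alone. Their median difference was -1.57 points. Of 12 bile duct genes 9 were measured, with 0 past 10 points, a range of 0% to 32.0% in the fasted library and 1.20% to 37.8% in the control library, and Krt19 highest at 3.26 and Krt7 lowest at -5.86 points.

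Of 8 endothelial genes, 2 had a measured window and both were higher in the fasted library by at least 10 points. The share was 1.2% of all protein-coding windows and 8.27% of those with 5 to 20 cytosines and a mean level of 10 to 40%. Both endothelial windows stood above 40% in the fasted library, so the second share is not matched to them in level. Eng stood at 68.4% in the fasted library and 37.1% in the control library over 12 cytosines. Cdh5, which encodes an adhesion protein of vessel walls, stood at 88% and 60% in that order over 5. The Cdh5 window was at the gene end with more cytosines, which may not be its start. Of 7 stellate cell genes 5 were measured and 1 was higher by at least 10 points, against the same 1.2% and 8.27%. It was Pdgfrb, at 50.7% in the fasted library and 25.9% in the control library over 6 cytosines, while Des was lowest at -2.95 points. The Pdgfrb window, too, was at the gene end with more cytosines. Of 10 immune genes 0 had a measured start window. Over gene spans, 1.05% of protein-coding genes were higher and 1% lower by at least 10 points. Of 10 measured hepatocyte genes, 1 was higher (Asgr1, 6 cytosines) and 1 lower (Fgb, 20 cytosines). Of 12 bile duct genes 1 was higher (Muc1, 5 cytosines), and of 5 immune genes 1 was (Cd5l, 12 cytosines). Among endothelial and stellate genes, 0 of 8 and 0 of 7 passed 10 points. The shares cover spans of all sizes with at least 5 cytosines and are not matched in size to these spans. RNA was not measured, so these levels do not count cells, and the part of cell mix in the Krt8 difference was not tested.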

How the data were processed

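DNA methylation was measured by reduced representation bisulfite sequencing in 1 fasted and 1 control liver library, grouped by their titles. The submitters' processing notes list bcl2fastq (1.8.4) and Bismark (0.14.3) and the build mm10. Settings for trimming, duplicates and filtering were not used here. The authors' deposited tables give, for each CpG cytosine on its own strand, a text field with methylated and total read counts, and a score that equals 1000 times the methylated fraction. The deposited read counts were used, and positions count from 1. Reads are PCR products without molecular identifiers.

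Levels were averaged over cytosines that reached 5 reads in each library. All such autosomal cytosines were compared with a two-sided Fisher's exact test, adjusted by Benjamini and Hochberg's method (threshold 0.05), after a test on simulated data. Exact intervals are Clopper-Pearson, those of span levels come from the counting error of each cytosine, and a limit for 0 methylated reads is 3 reads of the total. Median depth of the tested cytosines was 15 reads in the fasted and 14 in the control library. Gene spans and starts are from RefSeq tables of GRCm38.p6, in which 3 of the 4 keratins had a start. Where no strand was given, the gene end with more cytosines was used, so the start window of such a gene may lie at its far end. Exons and introns were not analysed here. Stretches are runs of cytosines with gaps up to 500 bp.

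The naming rule covers called cytosines, the 5 largest differences in each direction at each gene, every cytosine of a start window of 30 or fewer, and for each list the genes of highest and lowest start window difference. The Krt19 window, and some of the largest differences at Krt18, Krt19 and Krt20, are given only within the means and counts of their stretch. The cytosines 102008199 and 102026694, Sqstm1, Krt86, Krt88, and the span changes of marker genes were named outside the rule after their values were seen, as were the cytosines before the Krt20 start that rank below the first 5. Of the lists, 23 of 25 type II keratins, 25 of 25 type I keratins and 9 of 10 immune genes matched a gene. Members and lists were chosen with earlier results of these data known. Stretches, the comparison with small windows and loci, and the alternatives by strand and without the start window were chosen after the data were seen. Other alternatives changed the read minimum, flank, window, weighting and strand merging. Analyses used Python 3.11.15, numpy 2.4.6, pandas 2.3.3, scipy 1.17.1, numba 0.67.0 and matplotlib 3.10.9.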

Additional observations from a re-analysis of the deposited data

How the results depend on the processing

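Differences are fasted minus control, in percentage points. No paired analysis was possible because each group had 1 library. The Krt8 locus difference of -5.47 points was 2.43 at a minimum of 20 reads (14 cytosines), -1.33 with reads weighted equally, -9.90 on the plus strand and -0.359 on the minus strand. The Krt8 start window, -12.9 points, was -25.4 at a minimum of 10 reads (6 cytosines) and 11.7 on the minus strand (3 cytosines), and it had 0 cytosines at a minimum of 20 reads. It was -3.63 with 2000 bp on each side. The strand and start window alternatives were added after seeing the data. The Krt18 locus, -2.35 points, was -4.90 without its start window, and that window, -0.03 points, was -3.25 at a minimum of 20 reads (5 cytosines). The Krt19 locus, 0.98 points, was 5.60 at a minimum of 20 reads (4 cytosines) and -3.13 with reads weighted equally. The Krt20 locus, -6.19 points, was 1.05 at a minimum of 10 reads (12 cytosines) and 3.62 at a minimum of 20 (3 cytosines). The cause of these moves was not tested, apart from the fewer cytosines that a higher minimum leaves. Over the autosomes 746 cytosines were called higher and 606 lower. These were 417 and 361 at a minimum of 20 reads, 41 and 32 with read counts halved, and 1189 and 981 with strands merged. Calls at Krt18, Krt19 and Krt20 were 0 under each alternative tried for them. With 0.0548% of autosomal cytosines called, 0 among so few cytosines was likely beforehand, so it does not measure stability. At a minimum of 20 reads, 14 of 71 cytosines remained at Krt8, 15 of 109 at Krt18, 4 of 70 at Krt19 and 3 of 20 at Krt20.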
